A study of Mus musculus with 16 samples.

Results

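The 49 genes described here encode the machinery by which a cell copies its DNA and divides. They cover the proliferation marker Mki67 and the topoisomerase Top2a, cyclin-dependent kinases and their cyclins, the licensing factors and helicase of DNA replication, nucleotide supply, the mitotic kinases and the spindle checkpoint, the centromere, the kinesins and proteins of cytokinesis, the transcription factors E2f1 and Mycn, and 3 inhibitors of cyclin-dependent kinases. Members were listed by symbol, with earlier results of these data known, and all 49 were found among the 16118 genes measured. All 49 also passed the filter for testing, a mean of at least 1 CPM (read counts scaled to library size) over all libraries, as did 13950 genes in all.

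Expression was measured by sequencing polyA RNA from the dissected atria and the dissected ventricles of 8 mouse hearts at E15.5, with the outflow tract removed. In the 4 double knockout embryos (dKO) the genotype was Meis1flox/flox; Meis2flox/flox; aMHC tg/wt, and in the 4 controls it was Meis1flox/flox; Meis2flox/flox with aMHC +/+. Meis1 and Meis2 encode TALE homeodomain transcription factors. All embryos therefore carried the floxed alleles and only the dKO embryos carried the α-MHC-Cre transgene, so that an effect of the Cre transgene and an effect of the deletion cannot be told apart. The α-MHC promoter drives Cre in cardiomyocytes, and the other cell types of the dissected tissue are not its targets. The series design speaks of a constitutive or inducible deletion without saying which of these applies here. Each embryo gave 1 atrial and 1 ventricular library, which makes 4 groups of 4 libraries, and replicates are numbered here so that atrium 1 and ventricle 1 of a genotype came from the same embryo. The harvest notes name 4 litters, each with a control and a dKO embryo, but the 3 numbers that open the sample titles do not pair the genotypes that way. The title number of dKO embryo 1 was its own. Another, called the shared title number here, was held by control embryos 1 and 2 and dKO embryos 2 and 3. The last was held by control embryos 3 and 4 and dKO embryo 4, so it too spans both genotypes. Nothing else says how the embryos are related, and p-values measure the spread between these embryos.

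A cell enters the cycle when D-type and E-type cyclins activate their kinases and release E2F transcription factors, which switch on the genes of DNA replication. Licensing by Cdc6 and Cdt1 loads the Mcm helicase onto origins, and ribonucleotide reductase and thymidylate synthase supply the nucleotides for synthesis. Genes of mitosis come on later and share promoter elements, the cell cycle genes homology region (CHR) and CCAAT boxes, that are read by the MuvB complexes and by NF-Y. Cardiomyocytes of the fetal heart still divide, as do its endothelial cells, fibroblasts and epicardium, and Mycn is known for its part in the growth of the embryonic ventricular wall.

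Promoters of the members, like those of other cell cycle genes, carried these elements more often than promoters at large. RefSeq promoters (GRCm38.p6, 300 bases each, 250 before and 50 after the start) were found for 42 of the 49 members and gave 48 promoters, and 7 members (Aurkb, Ccna2, Ccnd1, Ccnd2, Ccne2, Kif20a and Mcm4) had no entry. Both strands were searched. The letters taken for the CHR were TTTGAA, with TTCGAA as its other form, and the box of NF-Y was spelled CCAAT. A promoter was said to hold an E2F core where it had TTGGCGC, where it had the variant TTCCCGC, where it had the variant TTGCCGC, or where it had the variant TTCGCGC. The core of a MEIS site was taken as TGACAG throughout. Some E2F letters overlap each other on opposite strands, so a promoter was scored only as holding a motif or not. The mitotic members (Mki67, Top2a, Cdk1, the A-type and B-type cyclins, and the checkpoint, centromere, kinesin and cytokinesis genes) had 22 promoters, of which 18 (81.8%) held a CHR, against 19.2% of all 32851 promoters in the table and 13.6% of the promoters of tested genes. By gene the CHR was present in 16 of 20 mitotic members, the exceptions being Ccnb1, Mad2l1, Birc5 and Cenpe. Of the 28 CHR matches in mitotic members, 18 started within 50 bases of the transcription start, against 25.2% of the 7260 matches in all promoters. The 13 promoters of replication and nucleotide members held an E2F core in 9 cases (69.2%), against 9.57% of all promoters and 16.3% of those of tested genes, while 22.7% of mitotic promoters held one and 23.1% of the replication and nucleotide promoters held a CHR. A CCAAT box was present in 86.4% of mitotic and 76.9% of replication and nucleotide promoters, against 37.4% of all. In 89 promoters of other cell cycle genes the CHR was present in 48.3%, the E2F core in 41.6% and CCAAT in 57.3%, against 45.8%, 35.4% and 68.8% of all 48 member promoters. The MEIS core was present in 18.8% of member promoters, 19.2% of all promoters and 16.8% of those of tested genes. A match describes the letters in this window and not the binding of a factor.

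The stretches printed here show the elements in members that the expression results turn on. They were chosen after the matches were seen. Capitals mark the CHR (TTTGAA, or TTCAAA where it lies on the other strand), CCAAT (or ATTGG) and the E2F core, and each sequence reads 5′ to 3′ along the gene on GRCm38.p6. Windows open 150 bases before the start and end at most 30 bases after it, and stretches of 30 bases around the CHR are given for Cenpa, Prc1 and Mycn, where annotated exons of these or neighbouring genes cover the longer window. Cdc20, Kif11, Cenpf, Cenpa and Prc1 are mitotic genes, each with 1 CHR shown. Rrm1, Mcm3 and Mcm6 are genes of DNA synthesis with CCAAT boxes and E2F cores and no CHR. Mycn held a CHR on the reverse strand, with its E2F cores further upstream than the stretch printed, and Tyms held none of these letters in its window.
Cdc20 (chr4:118437323-118437493, minus strand): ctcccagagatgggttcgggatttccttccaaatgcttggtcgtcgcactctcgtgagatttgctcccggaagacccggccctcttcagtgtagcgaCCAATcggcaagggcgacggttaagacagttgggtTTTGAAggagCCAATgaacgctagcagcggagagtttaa
Kif11 (chr19:37376232-37376411, plus strand): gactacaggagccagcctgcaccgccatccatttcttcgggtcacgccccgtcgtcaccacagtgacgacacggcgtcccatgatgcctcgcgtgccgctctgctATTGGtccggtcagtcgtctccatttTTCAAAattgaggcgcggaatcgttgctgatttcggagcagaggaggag
Cenpf (chr1:189688057-189688236, minus strand): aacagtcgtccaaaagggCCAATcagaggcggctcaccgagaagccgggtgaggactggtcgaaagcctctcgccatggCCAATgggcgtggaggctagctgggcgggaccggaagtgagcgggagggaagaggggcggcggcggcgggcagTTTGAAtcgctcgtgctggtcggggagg
Cenpa (chr5:30666890-30666919, plus strand): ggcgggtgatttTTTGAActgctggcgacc
Prc1 (chr7:80294434-80294463, plus strand): cctctggctcggTTTGAAttccgcggggtc
Rrm1 (chr7:102441545-102441724, plus strand): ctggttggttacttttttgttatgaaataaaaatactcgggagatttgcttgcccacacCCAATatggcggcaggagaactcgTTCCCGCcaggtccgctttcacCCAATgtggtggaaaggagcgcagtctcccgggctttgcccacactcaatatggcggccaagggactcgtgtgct
Mcm3 (chr1:20820283-20820462, minus strand): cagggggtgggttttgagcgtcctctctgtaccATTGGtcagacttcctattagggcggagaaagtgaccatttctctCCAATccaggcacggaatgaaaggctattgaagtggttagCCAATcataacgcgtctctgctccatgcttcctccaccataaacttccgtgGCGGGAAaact
Mcm6 (chr1:128359676-128359855, minus strand): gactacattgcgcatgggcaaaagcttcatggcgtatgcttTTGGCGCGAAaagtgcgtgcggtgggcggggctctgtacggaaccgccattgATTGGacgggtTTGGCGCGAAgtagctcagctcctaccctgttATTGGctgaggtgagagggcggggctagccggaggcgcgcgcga
Mycn (chr12:12941833-12941862, minus strand): tatcccccgagcTTCAAAgcgcagccagtg
Tyms (chr5:30073596-30073775, minus strand): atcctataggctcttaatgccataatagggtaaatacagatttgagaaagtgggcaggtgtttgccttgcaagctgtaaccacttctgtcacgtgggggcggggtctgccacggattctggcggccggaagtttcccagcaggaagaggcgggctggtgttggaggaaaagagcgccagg

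**Figure D1:**
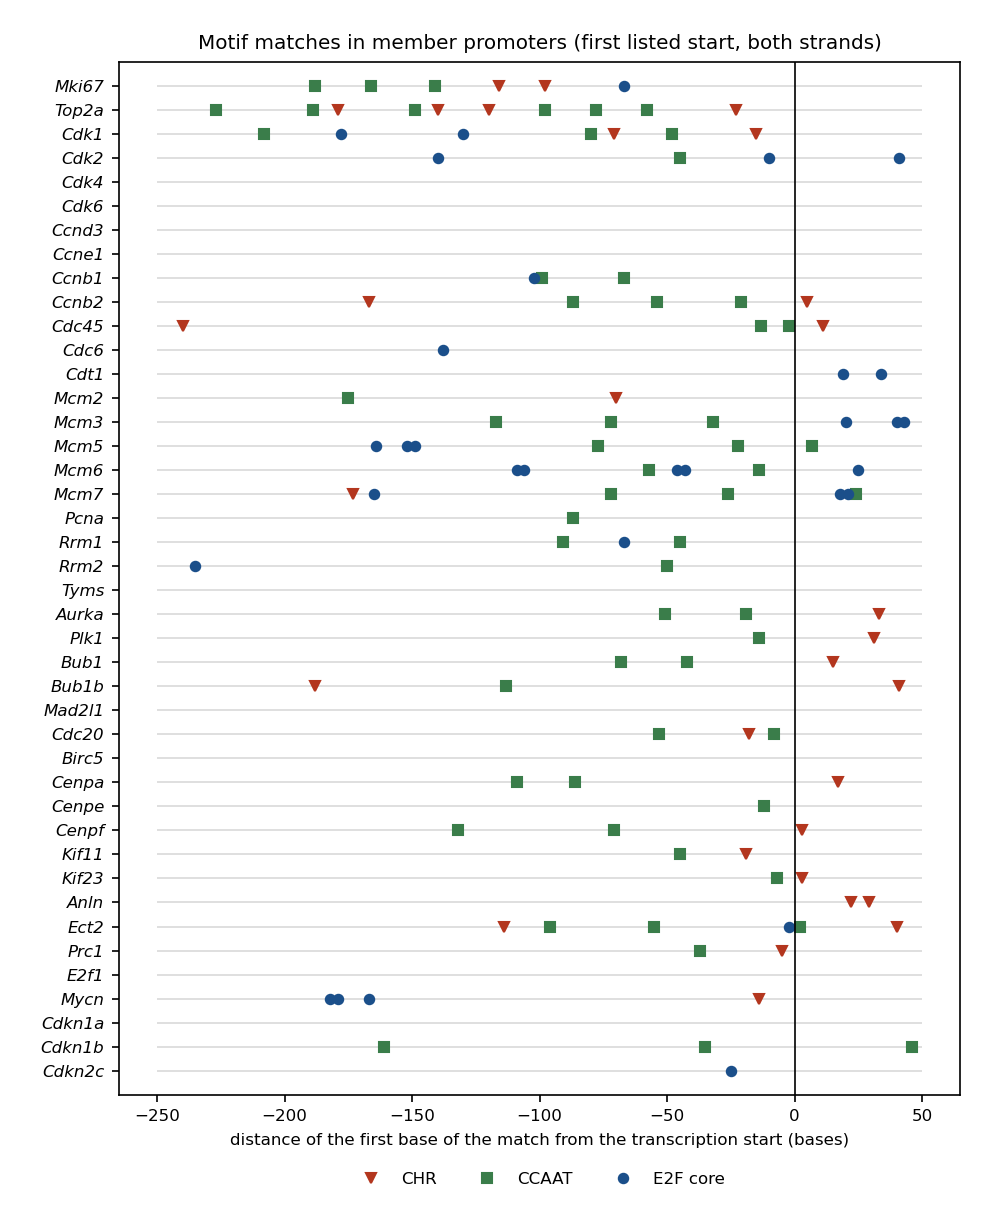
Positions of CHR (triangles), CCAAT (squares) and E2F core (circles) matches in the first listed promoter of the 42 members with an entry, as the distance in bases of the first base of the match from the transcription start, on both strands. Most CHR matches of mitotic members lie close to the start, and E2F cores are present in 8 of the 12 replication and nucleotide genes.

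Reads recovered per library numbered 7.88 to 23.0 M, and every dKO ventricle (7.88 to 14.3 M) was shallower than every control ventricle (15.6 to 23.0 M). Each member was covered by 180 to 11356 reads in a library. CPM is not corrected for gene length, so levels are compared between libraries and not between genes. Meis1 was at 37.9 to 43.9 CPM in control atria and 22.9 to 30.5 in dKO atria, and at 36.2 to 45.6 and 37.8 to 43.4 CPM in control and dKO ventricles. Meis2 was at 22.8 to 27.8 and 25.1 to 29.2 CPM in control and dKO atria, and at 35.4 to 43.6 and 20.5 to 26.9 CPM in control and dKO ventricles. Meis1 was thus separated by genotype in atria only and Meis2 in ventricles only. Reads from outside a deleted exon still count toward a gene, so these totals do not check the deletion itself. Each dissected chamber carried its labelled markers: in control embryos atrial myocyte genes summed to 10131 to 11978 CPM in atria and 1809 to 2315 in ventricles, and ventricular myocyte genes to 399.5 to 1561 CPM in atria and 19869 to 21824 in ventricles. Both sums differed between genotypes, as given beside the genotype comparison.

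The cell cycle genes were higher in ventricles than in atria, in controls and in dKO embryos. In control embryos 42 of the 49 members were called higher in the ventricle and 1 lower (limma on log2(CPM + 1), adjusted p under 0.05), where 46.9% of all genes tested were called, 26.4% higher and 20.5% lower. In dKO embryos 40 were called higher and none lower, where 49.1% of all genes were called, 26.5% higher and 22.5% lower. The median log2 difference of the members was 0.48 in controls and 0.51 in dKO embryos, beside 0.03 for all genes in each comparison. The same 40 members were called higher in both genotypes, Cdk4 and Ccnd3 were called in controls only, and 6 members (Cdk2, Cdk6, Ccne1, Ccne2, Tyms and E2f1) were called in neither. For Cdk4 and Ccnd3 the chamber differences of the genotypes themselves differed by -0.06 and -0.09, neither of which passed (limma adjusted p = 0.82 and 0.64). Bulk tissue cannot tell a larger share of cycling cells from more of these transcripts per cell.

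The sum of the 49 members was 3596 to 4116 CPM in control atria (3909 ± 221, SD, n = 4) and 5170 to 5498 in control ventricles (5299 ± 140.4). It was 3590 to 3887 CPM in dKO atria (3685 ± 139) and 4786 to 5300 in dKO ventricles (5042 ± 249.9). No ventricular library overlapped an atrial one. Within the embryos, the sum was 1.31 to 1.47 times as high in the ventricle as in the atrium of the same heart, and 42 of the 49 members were higher in the ventricle in all 8 embryos. Groups did not overlap for 40 members higher and 1 lower in controls, where 24.4% and 18.9% of all genes were so separated. In dKO embryos they did not overlap for 38 members, all higher, against 20.8% of all genes.

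**Figure D2:**
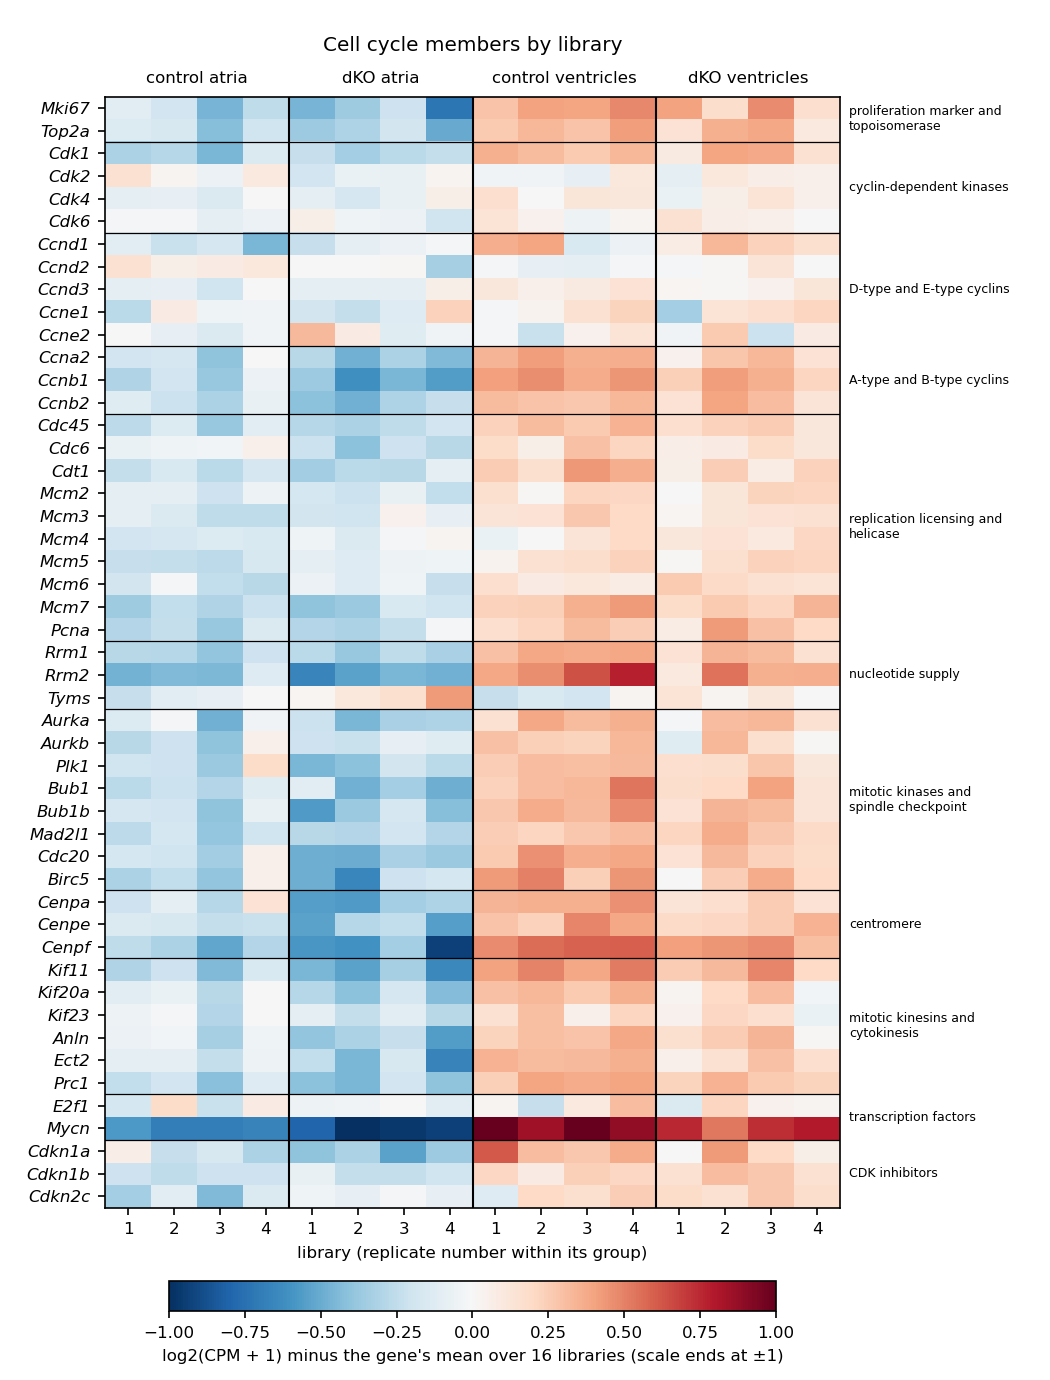
Level of each member in each library, as log2(CPM + 1) minus the gene's mean over all 16 libraries, with members grouped by role and libraries by group. Both ventricular blocks are above the mean for nearly every row outside the cyclin-dependent kinases, the D-type and E-type cyclins, Tyms and E2f1, and Mycn spans the widest range.

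Mycn, a MYC-family transcription factor, had the widest difference. It was at 12.5, 11.5, 11.5 and 11.7 CPM in control atria and 40.4, 35.4, 39.9 and 36.2 in control ventricles. In dKO embryos it was at 10.6, 7.31, 9.35 and 9.59 CPM in atria and 33.0, 28.0, 32.6 and 34.0 in ventricles. Every ventricle was well over the highest atrium, with group means of 11.8 and 38.0 CPM in control atria and ventricles and 9.22 and 31.9 CPM in dKO atria and ventricles. The log2 difference was 1.61 (SE 0.09, limma adjusted p = 3.33e-11) in controls and 1.69 (SE 0.09, limma adjusted p = 1.57e-11) in dKO embryos. E2f1, the other transcription factor listed, did not pass the test, at 0.09 and 0.08 on the log2 scale.

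The genes of nucleotide supply split. Rrm1 and Rrm2 encode the large and small subunits of ribonucleotide reductase, which makes deoxyribonucleotides. Rrm2 was at 83.7, 85.5, 84.8 and 106 CPM in control atria and 152, 161, 181 and 200.5 in control ventricles, and at 73.0, 80.0, 84.5 and 83.2 and 124, 169.6, 149 and 149.7 CPM in dKO atria and ventricles. Its log2 difference between chambers was 0.94 (SE 0.09, limma adjusted p = 8.76e-08) in controls and 0.87 (SE 0.09, limma adjusted p = 2.09e-07) in dKO embryos. Both groups of ventricles lay above all atria. Rrm1 was at 131, 130.2, 120.4 and 137 CPM in control atria and 195, 208, 205 and 208 in control ventricles, a log2 difference of 0.65 (SE 0.05, limma adjusted p = 8.71e-09). In dKO embryos Rrm1 was at 131, 122, 133 and 126 and 175, 201, 198 and 177 CPM, a log2 difference of 0.55 (SE 0.05). Tyms, thymidylate synthase, overlapped between chambers and had log2 differences of -0.03 (95% interval -0.20 to 0.14) in controls and -0.11 (-0.28 to 0.06) in dKO embryos.

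All 10 members of replication licensing and the helicase were called higher in ventricles in both genotypes, with log2 differences of 0.21 to 0.59 in controls and 0.19 to 0.53 in dKO embryos. The control call of Cdc6 was lost in edgeR, in DESeq2 and without control embryo 1 or 3 (adjusted p up to 0.19). Mcm7, a subunit of the Mcm2-7 helicase, had the widest of these. It was at 80.8, 87.3, 83.8 and 89.1 CPM in control atria and 122, 123, 133 and 140.0 in control ventricles, and at 78.0, 79.8, 93.1 and 90.1 and 118, 124, 121 and 132 CPM in the dKO chambers. The groups did not overlap, and the log2 difference was 0.59 (SE 0.06, limma adjusted p = 1.48e-07) in controls and 0.53 in dKO embryos. Its exons overlap those of Cops6 and Ap4m1 on the other strand. Cdc45, which joins Mcm2-7 in the active helicase, the licensing factor Cdt1 and the sliding clamp Pcna were between 0.40 and 0.51 in both genotypes. The other Mcm genes and Cdc6 were lower in the order, from 0.19 to 0.39.

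The genes of mitosis moved together. All 8 members of the mitotic kinases and spindle checkpoint, all 3 of the centromere, all 6 kinesins and cytokinesis genes, and all 3 A-type and B-type cyclins were called higher in ventricles in both genotypes, as were Mki67 (0.65 and 0.74), Top2a (0.56 and 0.58) and Cdk1 (0.62 and 0.52), the kinase that drives entry into mitosis. The dKO call of Aurkb (0.25) was lost in DESeq2 and without dKO embryo 2 or 3 (adjusted p up to 0.18). Cenpf, a kinetochore protein, stood at 99.1, 94.6, 82.3 and 96.3 CPM in control atria and 165, 174, 179 and 179.8 in control ventricles. In dKO embryos it stood at 78.5, 77.5, 92.9 and 61.4 and 158, 160.5, 164 and 145 CPM. All ventricles exceeded all atria, and the log2 difference was 0.90 (SE 0.08, limma adjusted p = 6.47e-08) in controls and 1.02 (SE 0.08, limma adjusted p = 1.06e-08) in dKO embryos.

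Kif11, the kinesin that pushes spindle poles apart, was at 83.2, 88.5, 75.2 and 91.9 CPM in control atria and 136, 145, 134 and 148 in control ventricles. In dKO embryos it was at 74.6, 70.5, 81.1 and 65.4 and 123, 128, 144 and 118 CPM. Its log2 difference was 0.73 (SE 0.07) in controls and 0.81 (SE 0.07, limma adjusted p = 1.64e-08) in dKO embryos, with no overlap in either. Ccnb1, cyclin B1, was at 76.1, 81.8, 71.7 and 90.1 CPM in control atria and 125, 130.0, 122 and 128 in control ventricles, and at 72.8, 61.1, 67.9 and 63.4 and 111, 126, 120.2 and 109 CPM in the dKO chambers. Its log2 difference was 0.66 (SE 0.07) in controls and 0.81 (SE 0.07, limma adjusted p = 9.85e-09) in dKO embryos. Here too every ventricle exceeded every atrium. Mad2l1, a spindle checkpoint protein, was at 42.4, 45.1, 38.9 and 44.3 CPM in control atria and 60.7, 59.5, 61.7 and 63.3 in control ventricles. It was at 41.9, 41.5, 44.6 and 41.5 and 59.3, 66.2, 61.7 and 58.4 CPM in the dKO chambers, so that the chambers differed by 0.51 and 0.52 on the log2 scale (SE 0.05 each), nearly the same in both genotypes. Prc1, which bundles microtubules in the central spindle, was at 95.4, 99.4, 84.9 and 104 CPM in control atria and 134, 149.9, 147 and 149.7 in control ventricles, and at 85.3, 82.4, 99.2 and 85.7 and 132, 145, 136 and 132 CPM in the dKO chambers. It differed by 0.60 (SE 0.06) and 0.63 (SE 0.06, limma adjusted p = 1.56e-07), and part of its exons overlap Rccd1 on the other strand.

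Among the 3 kinases and 5 cyclins that act before mitosis, 4 passed in controls and 1 in dKO embryos. Cdk2, Cdk4 and Cdk6 had log2 differences of -0.07, 0.18 and 0.09 in controls and 0.11, 0.12 and 0.13 in dKO embryos, and of these 6 values only Cdk4 in controls passed (limma adjusted p = 0.0095). Ccnd1, cyclin D1, was called higher in both genotypes (0.38 and 0.30), but in dKO embryos the call was lost under quantile normalization and without dKO embryo 1, 2 or 3 (limma adjusted p up to 0.088). Ccnd3 was called in controls (0.19) and not in dKO embryos (0.10). Under quantile normalization Cdk4 and Ccnd3 were at 0.03 and 0.04 in controls, which ended both calls, and at -0.0081 and -0.025 in dKO embryos. The control call of Cdk4 was also lost in edgeR and without control embryo 1 or 3. The E-type cyclins Ccne1 and Ccne2 passed in neither, at 0.16 and 0.05 in controls and 0.13 and -0.04 in dKO embryos. Ccnd2, cyclin D2, was at 308, 289, 295 and 299 CPM in control atria and 275, 262, 261 and 273 in control ventricles, and was called lower in the control ventricle (log2 difference -0.15, SE 0.06, limma adjusted p = 0.045). Leaving out any 1 of the 4 control embryos ended that call, as did testing without the low-value filter or without the embryo block (limma adjusted p = 0.062), and its adjusted p ranged from 0.00037 to 0.13 over all settings. All 3 inhibitors of cyclin-dependent kinases, Cdkn1a (p21), Cdkn1b (p27) and Cdkn2c (p18), were called higher in ventricles in both genotypes, at 0.55, 0.40 and 0.38 in controls and 0.58, 0.41 and 0.25 in dKO embryos, where the call of Cdkn2c was lost without dKO embryo 3 (limma adjusted p = 0.050).

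**Figure D3:**
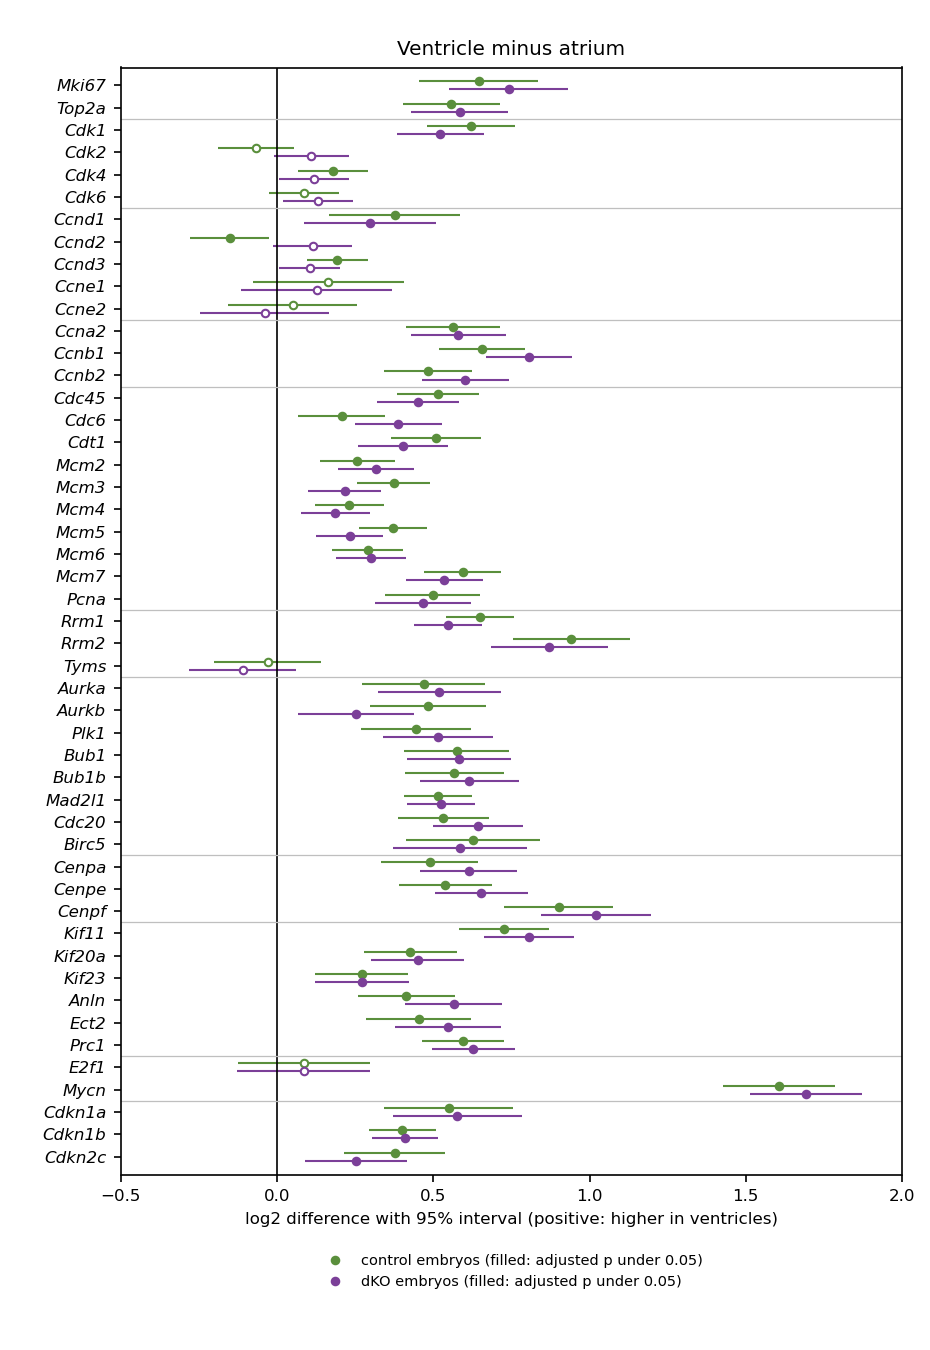
Log2 difference between ventricle and atrium for each member with its 95% interval, in control (green) and dKO (purple) embryos; filled points passed at adjusted p under 0.05 and grey lines part the roles. Most members lie between 0.2 and 0.8 in both genotypes, Mycn lies at 1.61 and 1.69, and Cdk2, Cdk6, Ccne1, Ccne2, Tyms and E2f1 are open in both.

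Markers of other cell types also differed between the chambers. Epicardial markers summed to 301 to 461 CPM in atria and 90.0 to 138 in ventricles, and fibroblast markers to 3591 to 7119 CPM in atria and 2572 to 3252 in ventricles. Smooth muscle and pericyte markers were the other way, at 569.8 to 1263 CPM in atria and 1464 to 1901 in ventricles. Endothelial markers were closer, at 760.0 to 978 CPM in atria and 718 to 778 in ventricles, macrophage markers summed to 66.7 to 113 and 53.1 to 65.5 CPM, and erythroid markers to 2521 to 5629 and 2283 to 4825 CPM. General cardiomyocyte markers summed to 20618 to 27395 CPM in atria and 18512 to 22509 in ventricles. Of these 7 genes, however, 4 were called higher and 1 lower in control ventricles, and 5 and 1 in dKO ventricles. Other lists were split too. In control and dKO embryos, 4 and 3 smooth muscle and pericyte genes were called higher in ventricles and 2 and 2 lower. Endothelial genes had 3 and 2 called higher and 3 and 4 lower, and fibroblast genes 1 and 0 higher and 4 and 4 lower. The lowest group mean of a marker gene was 0.02 CPM, for a neural and glial marker in control ventricles, where 3 reads made 0.11 to 0.16 CPM. The part of cell composition in the chamber difference was not tested.

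Between genotypes the members differed little, and mostly with lower values in dKO embryos. In atria none of the 49 members was called by limma (smallest adjusted p = 0.066, Cenpa), where 7.47% of all genes tested were called, 4.04% higher and 3.43% lower. At an unadjusted p under 0.05 there were 19 members, a level at which the share of all genes was not counted. While edgeR called 0 members, it called 7.39% of all genes. DESeq2 called 4 members lower (Cenpa, Ccnb1, Cdc20 and Anln), where it called 1552 genes (11.6% of those with an adjusted p), 726 of them lower. With the title number as a covariate limma called 4, Tyms higher (adjusted p = 0.013) and Ccnb1, Anln and Ect2 lower, where 1392 genes were called in all. In ventricles limma called 1 member, Cenpa, lower, where 2% of all genes were called, 0.989% higher and 1.01% lower, so the members were called at about the rate of genes at large. In ventricles 14 members had an unadjusted p under 0.05, again without a count over all genes. The median log2 difference of the members was -0.11 in atria and -0.09 in ventricles, beside -0.005 and -0.02 for all genes. Below 0 were 35 of 49 members in atria and 36 of 49 in ventricles, where 48.8% and 43.6% of all genes were above 0. Cell cycle genes can move together in a library, so these signs are not separate observations. The 95% intervals of single members reached from -0.58 to 0.49 in atria, and for 46 of the 49 they lay wholly within 0.5 of 0 on the log2 scale. Each interval holds for its own gene in bulk tissue, and none bounds a change within cardiomyocytes alone.

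Groups did not overlap for 6 members lower in dKO atria (Cenpa, Cenpe, Cdc6, Ccnd2, Mycn and Cdkn1a) and 3 higher (Tyms, Mcm5 and Cdkn2c), where 6.82% and 7.29% of all genes were so separated. In ventricles they did not overlap for 5 members lower (Ccna2, Cenpa, Cenpf, Ect2 and Mycn) and 1 higher (Ccnd2), against 4.78% and 3.33% of all genes. Averaged over both chambers, 8 members were called by limma, 7 lower and 1 higher in dKO embryos, where 9.11% of all genes were called, 4.72% lower and 4.39% higher. The 7 were Cenpa, Mycn, Ccnb1, Cdc20, Kif20a, Ect2 and Kif11, of which all but Mycn act in mitosis or cytokinesis, and the 1 that rose was Tyms. The average uses the same libraries as the comparisons within each chamber and is no separate evidence. Over the 49 members its median was -0.09 (all genes -0.009).

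**Figure D4:**
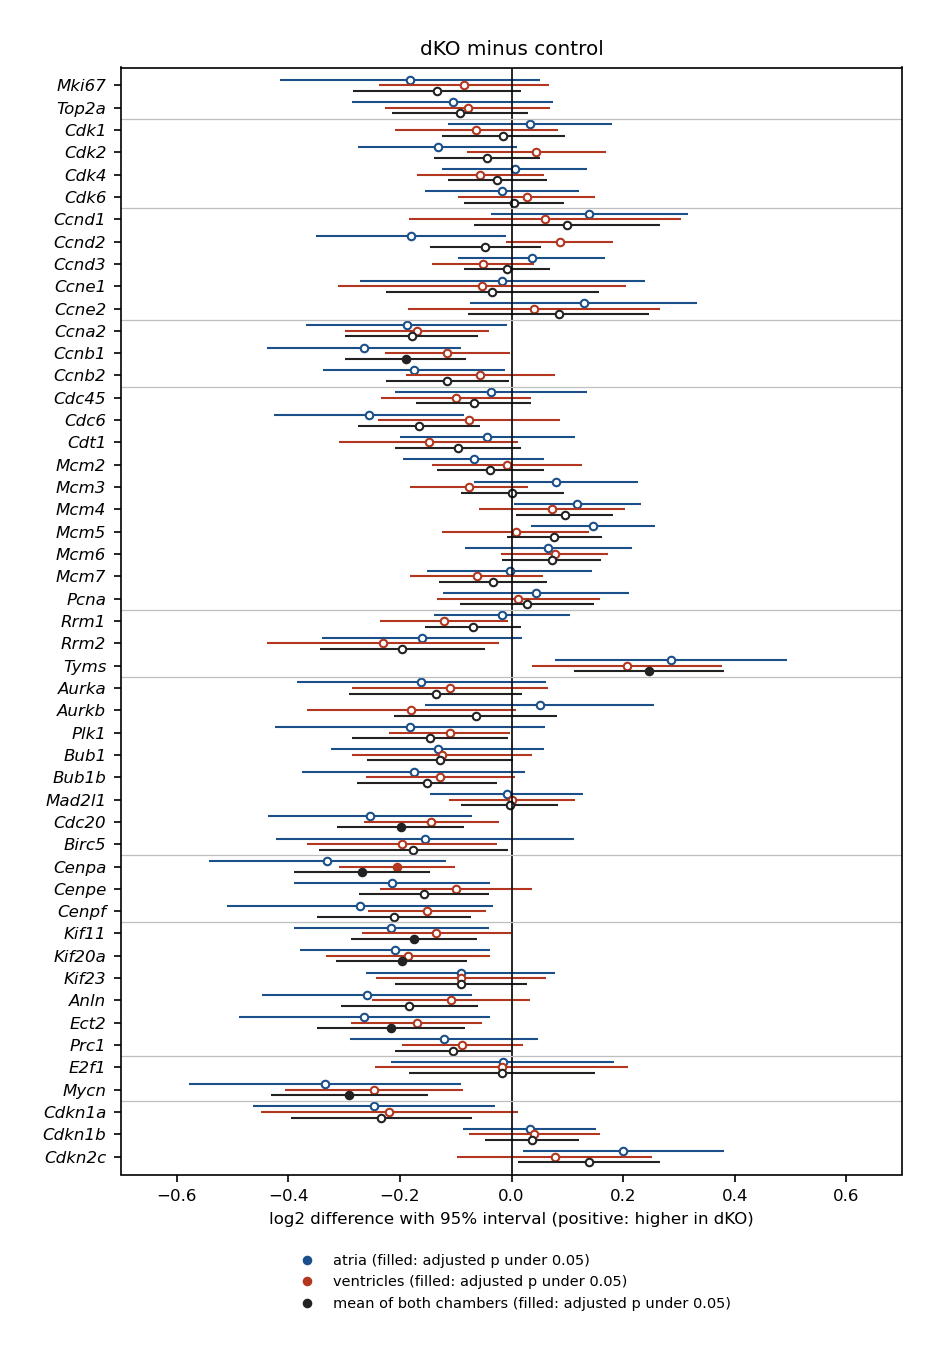
Log2 difference between dKO and control with its 95% interval for each member, in atria (blue), in ventricles (red) and averaged over both chambers (black), with filled points where the adjusted p was under 0.05. Filled points are Cenpa in ventricles and the 8 members called in the average, and most intervals include 0.

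Cenpa, the histone H3 variant that marks centromeres, was at 59.9, 65.0, 56.5 and 76.5 CPM in control atria and 47.1, 46.5, 54.5 and 55.6 in dKO atria. In ventricles it was at 87.8, 88.6, 89.1 and 95.5 CPM in controls and 75.6, 77.9, 82.7 and 76.5 in dKO embryos. The genotypes did not overlap in either chamber. The log2 difference was -0.33 (SE 0.10) in atria, -0.20 (SE 0.05, limma adjusted p = 0.0496) in ventricles and -0.27 (SE 0.06, 95% interval -0.39 to -0.15, limma adjusted p = 0.0057) on average. The call in ventricles did not hold under 14 of 18 other settings, edgeR among them, with adjusted p from 0.027 to 0.66. The call on average was kept in 18 of 19 other settings, with adjusted p from 0.00012 (DESeq2, which had no embryo term here) to 0.052.

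Mycn was lower in every dKO library than in every control library of the same chamber, at 7.31 to 10.6 CPM against 11.5 to 12.5 in atria and 28.0 to 34.0 against 35.4 to 40.4 in ventricles. Its log2 difference was -0.33 (SE 0.11) in atria, -0.25 (SE 0.07) in ventricles and -0.29 (SE 0.07, limma adjusted p = 0.0090) on average. The averaged call was kept in all 19 other settings, with adjusted p from 0.00072 to 0.048. Tyms moved the other way. It was at 18.2, 19.7, 20.2 and 21.4 CPM in control atria and 21.8, 23.2, 24.1 and 29.2 in dKO atria, which did not overlap, and at 18.1, 19.2, 18.6 and 21.9 CPM in control ventricles and 23.7, 21.9, 23.2 and 21.4 in dKO ventricles, where 1 control library lay inside the dKO range. Its averaged log2 difference was 0.25 (SE 0.06, limma adjusted p = 0.020), and the call was lost without control embryo 1, 2 or 3 or dKO embryo 3. A pseudogene, Tyms-ps, is annotated for this gene, and how reads were shared between the copies is uncertain.

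The other 5 members called on average were mitotic genes with overlapping groups in atria. Ccnb1 was lower by 0.26 in atria and 0.11 in ventricles, with the lowest control at 71.7 CPM and the highest dKO library at 72.8 in atria, and its average was -0.19 (SE 0.05, limma adjusted p = 0.026). Cdc20, the activator of the anaphase-promoting complex, was at 57.5, 56.8, 51.1 and 67.8 CPM in control atria and 46.2, 45.9, 51.9 and 50.1 in dKO atria. In ventricles Cdc20 was at 78.3, 89.7, 84.1 and 85.5 and 72.1, 82.0, 76.9 and 74.2 CPM, and 1 library of each genotype overlapped the other group in each chamber. Its average was -0.20 (SE 0.05, limma adjusted p = 0.027), and with the title number as a covariate the limma adjusted p was 0.058. Kif20a, a kinesin of the cleavage furrow and midzone, was at 80.3, 82.8, 71.4 and 86.7 and 71.1, 65.0, 77.4 and 64.0 CPM in control and dKO atria. In ventricles it was at 107, 109.7, 104 and 111 and 88.5, 99.9, 108 and 84.9 CPM, and its average was -0.20 (SE 0.06, limma adjusted p = 0.032). Ect2, the exchange factor that activates RhoA at the cleavage site, was at 50.6, 50.2, 45.4 and 52.1 and 45.3, 39.0, 48.1 and 33.5 CPM in control and dKO atria. In ventricles Ect2 was at 68.6, 67.4, 67.4 and 69.1 and 55.9, 59.8, 66.1 and 60.5 CPM without overlap, and its average was -0.22 (SE 0.06, limma adjusted p = 0.038). Kif11 averaged -0.18 (SE 0.05, limma adjusted p = 0.049), the weakest of the calls, with dKO ventricle 3 at 144 CPM among the controls. Of 19 other settings the call was lost in 4 for Ccnb1, 5 for Cdc20, 6 for Ect2, 7 for Kif20a and 9 for Kif11. For all 5 it was lost without control embryo 2, without control embryo 4 and among the embryos of the shared title number. Without dKO embryo 1 it was lost for Cdc20, Kif20a and Kif11, without control embryo 1 or dKO embryo 2 for Ect2, Kif20a and Kif11, and without dKO embryo 4 for all but Cdc20.

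**Figure D5:**
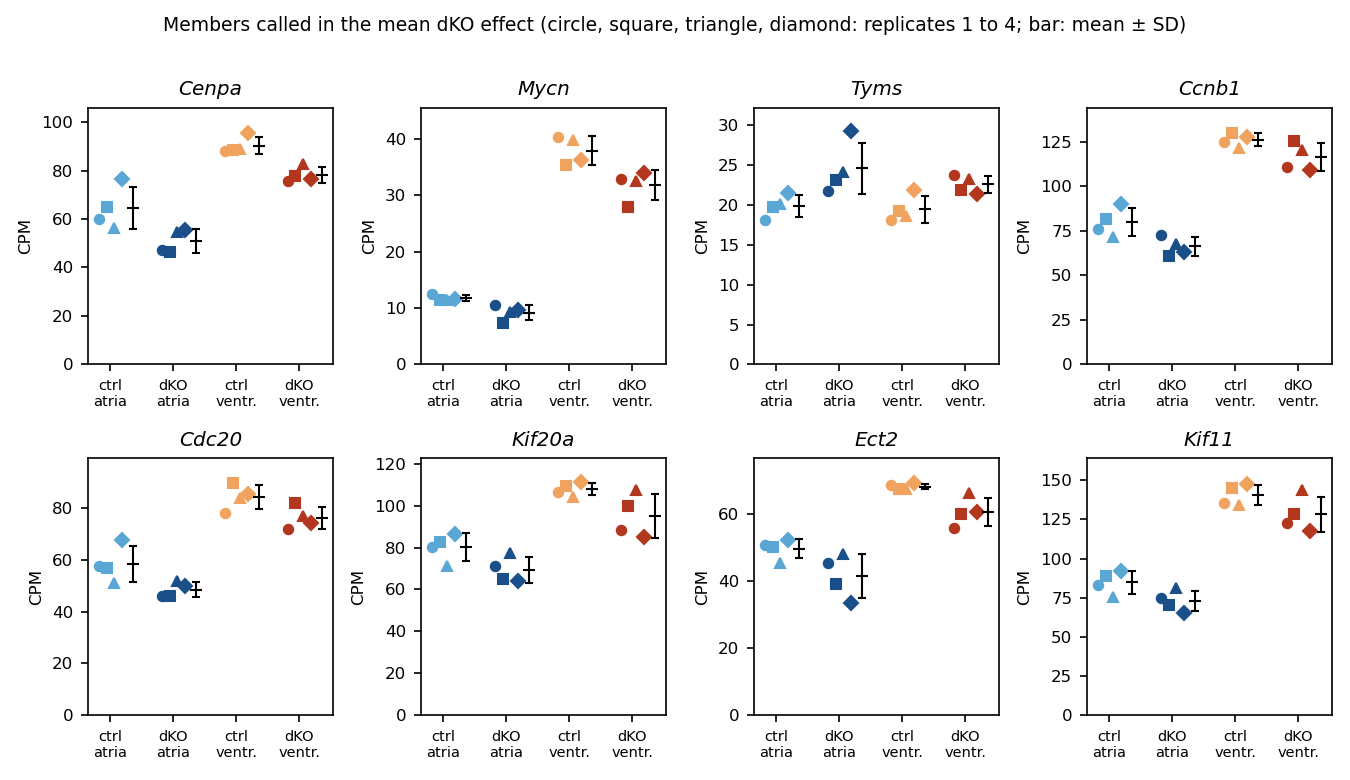
CPM of the 8 members called in the average of both chambers, 1 point per library (circle, square, triangle and diamond for replicates 1 to 4), with the mean ± SD beside each group. Cenpa and Mycn are separated by genotype in both chambers, and the chamber difference exceeds the genotype difference in every panel except Tyms.

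The 4 dKO ventricles did not move as one. Ventricles of dKO embryos 1 and 4 summed to 4786 and 4875 CPM over the 49 members, under every control. Ventricles of dKO embryos 2 and 3 summed to 5207 and 5300 CPM, inside the control range and next to 5170 and 5256 CPM in control embryos 1 and 2, which share their title number. Among the embryos with that title number alone (2 embryos per genotype) the members' median difference in ventricles was 0.004, in atria -0.09 and on average -0.04, and limma called 2 members on average, Mycn (-0.40, adjusted p = 0.033) and Tyms (0.28, adjusted p = 0.042). Of all genes, 5.35% were called on average among these embryos, so the 2 of 49 members are no more than the rate of genes at large. The other title numbers held 1 dKO embryo each, so no test was run within them. In the one that control embryos 3 and 4 share with dKO embryo 4, the dKO ventricle (4875 CPM) lay under both control ventricles (5271 and 5498 CPM). The dKO atrium there (3596.6 CPM) lay between the control atria (3596.3 and 4116 CPM).

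The number of members called on average also moved with single embryos. It was 4, 2, 9 and 3 without control embryo 1, 2, 3 and 4 in turn. Without dKO embryo 1, 2, 3 and 4 it was 5, 6, 11 and 4. Of all genes, 6.33% to 9.03% were called in these runs. For this average edgeR called 13 members and DESeq2 14, each including the 8. Of all genes edgeR called 10.4%, and DESeq2 called 12.6% of those it gave an adjusted p. Both were fitted without an embryo term, so the 2 chambers of an embryo counted as independent. Without the embryo block limma called 12 members and 10.8% of all genes. In atria, where none was called, 4 members were called without control embryo 3 and 1 each without dKO embryo 1 or dKO embryo 4. Of all genes 6.01%, 7.68% and 8.61% were called in these runs, so the members were near or under the rate of genes at large.

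A test of the difference between the genotype effects in the ventricles and atria called none of the 49 members in limma (smallest adjusted p = 0.12), where 2.64% of all genes were called, 1.31% higher and 1.33% lower. There were 2 members with an unadjusted p under 0.05 in limma, again without a count over all genes. Of the members edgeR called 0 and DESeq2 called 1, where the count tools called 2.20% and 2.84% of genes. Intervals of this difference reached from -0.49 to 0.44 on the log2 scale. The member with the smallest p was Ccnd2, which was lower in dKO atria and higher in dKO ventricles without overlap in either. It was at 277, 278, 279 and 220.5 CPM in dKO atria against 289 to 308 in controls, and at 275, 281, 304 and 278 CPM in dKO ventricles against 261 to 275 in controls. The effects were -0.18 (SE 0.08) and 0.09 (SE 0.04), and their difference of 0.27 (95% interval 0.09 to 0.44) had an adjusted p of 0.12 in limma and 0.031 in DESeq2. Exons of Ccnd2 overlap those of Gm43126 on the other strand.

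By role, the replication genes had no common direction between genotypes. Of the 10 licensing and helicase members, 5 were above and 5 below 0 in atria and on average, with a median of -0.02 on average and none called. Cdc6 was nearest to a call on average (-0.17, limma adjusted p = 0.055). Counting edgeR and DESeq2, which had no embryo term here, it was called in 5 of 19 other settings, with adjusted p from 0.026 to 0.50. It was at 17.1, 17.4, 17.6 and 18.6 CPM in control atria and 15.4, 13.2, 15.4 and 14.6 in dKO atria (limma adjusted p = 0.075 in atria). For Mcm5 the 4 dKO atria (63.7 to 67.5 CPM) lay above the controls (57.8 to 62.2 CPM). All 8 checkpoint members, all 3 centromere members and all 6 kinesin and cytokinesis members were below 0 on average, with medians of -0.14, -0.21 and -0.18, and 5 of these 17 passed the test. Of all genes 46.7% were above 0 on average, and 9.11% passed. Genes of mitosis can rise and fall together in a library, so their signs are not separate observations. The median mitotic member (Cdk1 left out) was taken by library as log2(CPM + 1) minus the gene's chamber mean. It was at -0.087 to 0.21 in control and -0.16 to 0.053 in dKO atria. In ventricles it was at 0.0012 to 0.11 and -0.14 to 0.039, so the genotypes overlapped in both chambers. For Mki67 the dKO effect was -0.18 (95% interval -0.41 to 0.05) in atria and -0.09 (-0.24 to 0.07) in ventricles, and for Cdk1 it was 0.03 (-0.11 to 0.18) and -0.06 (-0.21 to 0.08).

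Some marker sums moved with genotype as well, in both chambers. Atrial myocyte markers summed to 1809 to 2315 CPM in control and 4070 to 4803 in dKO ventricles, with 3 of 6 called higher, and to 10131 to 11978 and 12997 to 14250 CPM in atria, with 2 of 6 called higher. Ventricular myocyte markers summed to 19869 to 21824 CPM in control and 17600 to 19161 in dKO ventricles, with 1 of 5 called lower, and to 399.5 to 1561 and 243 to 1066 CPM in atria, with 1 of 5 called lower. The genotypes overlapped in the last of these 4 sums only. In atria fibroblast markers summed to 3591 to 4822 CPM in control and 4259 to 7119 in dKO atria, with 2 of 7 called higher, and smooth muscle and pericyte markers to 569.8 to 693 and 919 to 1263 CPM, with 4 of 6 called higher. Epicardial markers summed to 301 to 378 and 389 to 461 CPM, with 1 of 6 called higher, and macrophage markers to 66.7 to 80.1 and 71.4 to 113 CPM, with 1 of 7 called higher. General cardiomyocyte markers summed to 23851 to 27395 CPM in control and 20618 to 23005 in dKO atria, with 1 of 7 called lower. In ventricles none of these 4 non-myocyte lists had a called gene, and all 4 sums overlapped, for fibroblast (2753 to 3252 and 2572 to 3234 CPM), smooth muscle and pericyte (1464 to 1783 and 1709.8 to 1901 CPM), epicardial (90.0 to 129 and 93.7 to 138 CPM) and macrophage (53.1 to 61.9 and 54.9 to 65.5 CPM) markers. Endothelial markers overlapped between genotypes, at 828 to 838 and 760.0 to 978 CPM in atria, where 1 of 6 was called lower. In ventricles they were at 755 to 776 and 718 to 778 CPM. Erythroid markers overlapped too, at 2521 to 5629 and 3001 to 5303 CPM in atria and 2283 to 3470 and 3063 to 4825 CPM in ventricles. The part of these cell types in the members' differences was not tested.

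Other genes of the cell cycle, 90 of which were tested from a further list of 92, were mostly higher in ventricles too. In the control chamber comparison 72 were called higher in ventricles and 3 lower (median 0.39), beside 26.4% and 20.5% of all genes (median 0.03). In dKO embryos 71 were called higher and 3 lower (median 0.40), beside 26.5% and 22.5% of all genes (median 0.03). Gmnn, the inhibitor of licensing, was at 17.4 to 20.1 CPM in control atria and 38.3 to 40.5 in control ventricles (log2 difference 0.99). Uhrf1, which carries DNA methylation through replication, differed by 0.73 and 0.66 in control and dKO embryos, Wee1, the inhibitory kinase of Cdk1, by 0.74 in controls, and Ube2c, the ubiquitin-conjugating enzyme of the anaphase-promoting complex, by 0.81 in dKO embryos. The 3 lower in ventricles in both genotypes were E2f8, Cdkn1c and Zwint. Cdkn1c, the inhibitor p57, was at 448 to 493 and 247 to 305 CPM in control atria and ventricles and at 385 to 508 and 209 to 249 in dKO embryos, where it differed by -0.96 (SE 0.08, limma adjusted p = 1.27e-08).

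Between genotypes these 90 genes gave 3 called lower and none higher in atria, where 3.43% of all genes were called lower, and 1 lower in ventricles, where 1.01% were, which is about the rate of genes at large in each. None was called in the difference between chambers, and 8 were called lower on average, where 4.72% of all genes were. E2f8, a repressor of the E2F family, was at 44.0 to 57.3 CPM in control and 36.9 to 41.6 in dKO atria, and at 34.4 to 38.3 and 28.9 to 33.0 CPM in ventricles, with an average of -0.29 (SE 0.05, limma adjusted p = 0.0015). Cdc25b, a phosphatase that activates Cdk1, was at 35.4 to 45.1 CPM in control and 31.5 to 34.5 in dKO ventricles, a log2 difference of -0.34 (SE 0.08, limma adjusted p = 0.040). It averaged -0.29 over both chambers. Cdca3, a trigger of mitotic entry, was lower in dKO atria by 0.33 (limma adjusted p = 0.036), and the condensin subunit Ncapd2 by 0.24 (limma adjusted p = 0.047). Of the 30 other spindle and kinetochore genes, 27 were below 0 on average and none passed the test, where 46.7% of all genes were above 0. Here too the signs are not separate observations.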

How the data were processed

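The authors deposited CPM, read counts scaled to library size, for 16118 genes in 16 libraries. The submitters' processing notes name cutadapt, RSEM 1.3.1 and GRCm38. How the values were scaled and filtered, and whether strand was used, is not given in the sources used here. Per the labels' protocols, 20 ng of total RNA gave polyA libraries read as 60 bases. In every library 100% of the values were whole reads within 0.001, plus a constant, times 1 step, and these reads gave the depth and entered edgeR 4.0.16 and DESeq2 1.42.0.

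Differences were tested two-sided with limma 3.58.1 in R 4.3.3 on log2(CPM + 1) for 13950 genes (mean over libraries 1 CPM or more), with Benjamini-Hochberg adjustment over all of them and a threshold of 0.05. Within-chamber comparisons of genotypes used 8 libraries. The other comparisons used all 16 with the embryo as a block (consensus correlation 0.108), since atrium and ventricle of an embryo share an identifier in the titles. On the recovered reads edgeR's quasi-likelihood test called 1031 genes between genotypes in atria, 259 in ventricles, 6272 and 6339 between chambers in control and dKO embryos, 307 for the difference of the effects and 1457 for their average. Between chambers and for the difference of the effects, edgeR and DESeq2 took the embryo as a fixed term. For the average they had no embryo term, so both chambers of an embryo counted as independent. The pipeline was tested on simulated data. Alternatives were the pseudocount, the filter, TMM and quantile scaling, both count tools, the title number, the block and leaving out each embryo.

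Members and lists were chosen with earlier results of these data known. Members named with every library's values were those called in a comparison, at most the 8 with the smallest adjusted p, and others were named for their role after their values were seen. Exons of 12 members overlap a gene on the other strand and 5 members have a pseudogene of their name (GENCODE M21), so their counts are less certain.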

Additional observations from a re-analysis of the deposited data

Results flagged for a closer look

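Among the 60 groups of 4 libraries examined for the members named by rule and the summed members, 3 held a library whose gap to its nearest neighbour took up most of the group's range, and chance alone marks about 1 group in 20. Cenpa was at 95.5 CPM in control ventricle 4 and at 87.8 to 89.1 CPM in the other control ventricles. Rrm2 was at 106 CPM in control atrium 4, with the other control atria at 83.7 to 85.5 CPM. Mad2l1 was at 44.6 CPM in dKO atrium 3, above 41.5 to 41.9 CPM in the other dKO atria. Ccnd2, with its low dKO atrium 4, was not among the members examined.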

How the results depend on the processing

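The chamber comparison varied little: 40 to 43 members were called in control embryos and 37 to 42 in dKO embryos over the settings run, leaving out embryos included. Of the values of single members over all alternatives, 5204 kept their direction and side of the threshold or moved by no more than 1 standard error, 73 lost and 50 gained a call, 112 uncalled values moved by more than 1 standard error, and no called value changed sign. Between genotypes in ventricles the 1 called member became 0 with a pseudocount of 0.5, with no filter, with TMM or quantile scaling, in edgeR, with the title number as a covariate and within the shared title number. In atria 0 called members became 4 in DESeq2 and 4 with the title number as a covariate. The difference of the effects between chambers went from 0 to 1 in DESeq2. Averaged over chambers, 8 became 13 in edgeR and 14 in DESeq2, both without an embryo term, and 2 within the shared title number. Leaving out 1 embryo gave 0 to 4 called members in atria, 0 to 1 in ventricles and 2 to 11 on average. Of all genes 4.98% to 8.61%, 1.34% to 1.87% and 6.33% to 9.03% were called in those runs. Without the replicate block, 42, 40, 0 and 12 members were called in control chambers, dKO chambers, the difference of the effects and the average, and with the embryo as a fixed term in the block 43, 41 and 0 in the first 3 of these. TMM moved the median of all genes by -0.04 to 0.01 on the log2 scale. Over all genes, the 279 called between genotypes in ventricles became 469 in DESeq2 and 79 within the shared title number, where the 368 called for the difference of the effects became 226 and the 1271 on average 746. The shallowest library, a dKO ventricle, held 7.88 M reads, and no member had fewer than 180 reads in a library. The cause of these changes was not tested.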
